A study of Mus musculus with 33 samples.

Results

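Cytosolic ribosomal protein genes encode the proteins that, with ribosomal RNA, build the large and the small subunit of the ribosome. They were taken as every gene of the deposited count table whose symbol is Rpl or Rps followed by digits and at most 1 letter a, l or x, or is Rplp0, Rplp1, Rplp2 or Rpsa. The rule used names only and no measured value, and it found 83 of 17120 genes, 51 of the large and 32 of the small subunit. Of these, 80 are annotated as protein coding and 3 (Rpl32l, Rpl6l and Rps4l) as processed pseudogenes in GENCODE release M21. All 83 passed the filter on low counts. RNA was sequenced from 33 mouse cultures in 11 groups of 3 replicates. Embryonic stem cells came from lines made from ScxGFP tendon reporter mice, in which a fluorescent protein reports the tendon factor Scx. They were grown as embryoid bodies, per the study's methods with the BMP inhibitor LDN and then with LDN and the Wnt agonist CHIR. The group PM (paraxial mesoderm) was collected at D0, before induction. This D0 is day 6 of the study's culture. The other groups were plated as monolayers with TGFβ1, the hedgehog agonist SAG and FGF2. They also received CD1530, which activates the receptor RARγ for retinoic acid and gives the tendon condition, or AGN 193109 (AGN), an inverse agonist of these receptors that gives the fibrocartilage condition, and were collected first at D0.25, then at D0.75, at D1.5 and at D2.5, and last at D4. The study also tested AGN and all-trans retinoic acid before induction. There AGN raised the share of cells with the Scx reporter, and all-trans retinoic acid removed almost all of them. Its text does not say whether the PM libraries received AGN. The sources do not tie a replicate to a particular stem cell line. PM is labelled as embryoid bodies and the later groups as monolayer, and the medium changed at the same point, so time, culture format and medium cannot be told apart in any comparison with PM.

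Ribosomal protein mRNAs are among the most abundant in growing cells, and their proteins are made in nearly equal numbers because each ribosome needs most of them once. Many of these mRNAs begin with a cytidine followed by a run of pyrimidines, the terminal oligopyrimidine (TOP) motif, through which mTOR and the binding protein Larp1 control their translation. The family also has a few paralogues with restricted expression, such as Rpl10l and Rpl39l, known for their roles in male germ cells, and Rpl3l, known for striated muscle, and each gene has many processed pseudogenes in the mouse genome, which matters for counting reads.

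Start-site sequences are shown first, to let the class of mRNA start named above be seen and to give the starts of the paralogues described further on. In the RefSeq promoter table, on GRCm38.p6, 61 members had an entry and 22 had none. A C at the start followed by 4 pyrimidines was found on the gene's strand at a listed start in 14 of 61 members (23.0%), in 354 of 11638 other genes of the count table (3.04%), and in 0 of 69 mitochondrial ribosomal protein genes. Over all promoters of the table, the share was 2.51%. A run of at least 8 pyrimidines touching the 5 bases on either side of the start was found in 24 of 61 members (39.3%) and in 12.1% of the other genes of the count table. Each sequence below has 15 bases before the start and 15 from it, so the start is base 16, and capitals mark the longest run of at least 5 pyrimidines touching the 5 bases on either side of the start. The start shown is the listed one nearest to the 5′ end of the gene. The first 4 were picked because they have a C at the start followed by 4 pyrimidines. The last 4 are protein-coding paralogues and lack it at the start shown. Most of the 61 members also lack it at their listed starts, so the contrast between these lines comes from the choice.
Rplp2 (chr7:141447636-141447665, plus strand): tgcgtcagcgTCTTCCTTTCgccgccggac
Rps27 (chr3:90213634-90213663, minus strand): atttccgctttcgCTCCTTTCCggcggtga
Rpl38 (chr11:114668565-114668594, plus strand): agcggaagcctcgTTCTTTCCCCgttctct
Rps6 (chr4:86857353-86857382, minus strand): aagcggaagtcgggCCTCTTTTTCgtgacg
Rpl10l (chr12:66284387-66284416, minus strand): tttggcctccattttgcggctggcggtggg
Rpl39l (chr16:10170213-10170242, plus strand): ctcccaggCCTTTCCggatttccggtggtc
Rpl3l (chr17:24727811-24727840, plus strand): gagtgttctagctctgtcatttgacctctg
Rps27l (chr9:66946071-66946100, plus strand): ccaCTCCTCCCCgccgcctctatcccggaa

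These letters describe the listed starts only. The start listed for Rplp2 lies 281 bases from the 5′ end of the gene in GENCODE, and that for Rpl38 lies 56 bases from it, so the match depends on which start is taken. Rps27l has a pyrimidine run of 9 bases, but it ends before the start.

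Totals were 17.1 M to 22.8 M counts per library, apart from AGN D2.5 replicate 1 with 38.1 M. Levels are given as TMM CPM, counts scaled to library size with a trimmed mean correction, and calls were made where the adjusted p of edgeR's quasi-likelihood test over all 17120 genes was under 0.05. The 6 paraxial mesoderm markers, among them Tbx6 and Msgn1, summed to 129 to 140 TMM CPM in PM, where the pluripotency markers Pou5f1, Nanog and Zfp42 summed to 1263 to 1285 and the 4 neural markers to 580 to 594. The summed level of the tendon markers Scx, Mkx, Tnmd, Col1a1 and Fmod was 1068 to 1392 TMM CPM in PM, 10874 to 11474 in CD1530 at D4 and 14192 to 15215 in AGN at D4, and that of the 4 cartilage markers was 17.9 to 20.1, 223 to 229 and 2909 to 3042. A sum follows its most abundant genes, so it does not rank the conditions for each tendon marker, and single markers are not given here. In the paper's qPCR, Mkx was higher with CD1530, and Scx and Tnmd were not affected. The pluripotency markers stayed detectable, at 78.5 to 83.5 in CD1530 and 188 to 197 in AGN at D4, and the neural markers were at 133 to 146 and 62.4 to 63.9. The 3 endothelial, 3 endoderm, 3 muscle and 3 erythroid markers summed to at most 142, 19.1, 4.70 and 4.88 TMM CPM at D4, and Myod1 was at 0 in CD1530 at D4. Their part in the differences between members was not tested. In bulk RNA, fewer cells of a type and less RNA per cell cannot be told apart.

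1 library stood apart for these genes. In CD1530 D0.75 replicate 1 the 83 members held 3.40% of all counts, against 2.69% and 2.72% in replicates 2 and 3. Its members had a median log2 level 0.35 above the mean of the other replicates, while this deviation ran from -0.09 to 0.12 in the 30 libraries of the other groups. The 1547 other genes with the shortest exons were also higher there, by a median of 0.24 on the log2 scale against -0.06 to 0.09 in those 30 libraries, and 76 of the 83 members are shorter than the median gene. Whether gene length accounts for the difference was not tested. Counts and medians of comparisons that use CD1530 at D0.75 are given with and without this library, and other values at that time include it unless stated.

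The members' share of the library asks how much of the sequenced RNA the family made up along the 2 trajectories. It was 3.85%, 4.19% and 3.92% in the PM libraries, a mean of 3.99% ± 0.18 (SD, n = 3). At D0.25 it was already 3.25% ± 0.10 in CD1530 and 3.22% ± 0.04 in AGN. In CD1530 it went on to 2.94% ± 0.40 at D0.75 (2.71% without replicate 1), 2.49% ± 0.02 at D1.5, 2.34% ± 0.02 at D2.5 and 1.84% ± 0.04 at D4. In AGN the shares were 2.75% ± 0.02, 2.62% ± 0.10, 2.37% ± 0.07 and 1.95% ± 0.05. At D4 the family thus held 46.2% of its PM share in CD1530 and 49.0% in AGN. The D4 libraries of both conditions lay below every PM library, and those of CD1530 (1.82% to 1.89%) below those of AGN (1.91% to 2.01%).

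**Figure D1:**
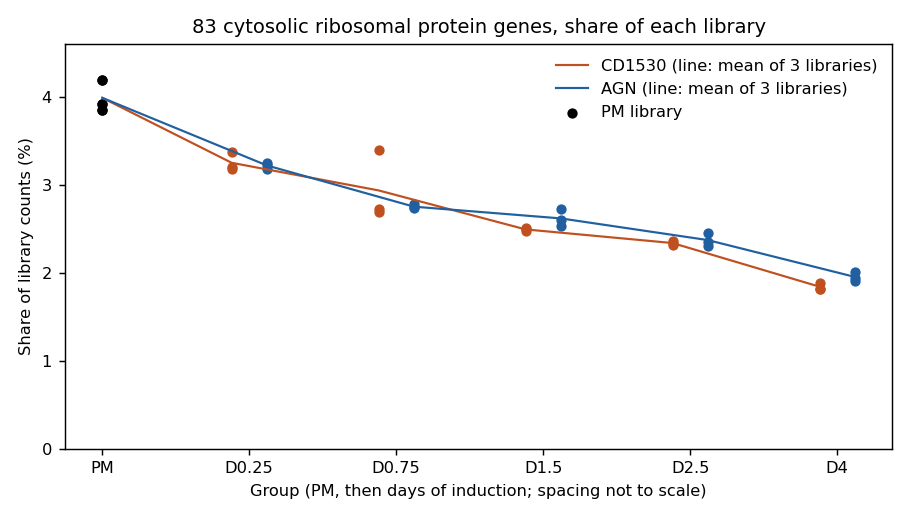
Share of all counts (%, vertical axis) held by the 83 members in each of the 33 libraries, by group along the horizontal axis (spacing not to scale). Points are libraries and lines join group means; the mean share was 3.99% in PM, and at D4 it was 1.84% for CD1530 and 1.95% for AGN, and 1 CD1530 library at D0.75 stood at 3.40%.

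Levels differed widely between members although their proteins are needed in similar numbers. Per kilobase of exon and averaged over the 11 groups, Rplp1, a stalk protein that helps to recruit elongation factors, was highest at 1752 TMM CPM per kilobase. It was followed by Rps15 at 1260, Rpl8 at 1225, the stalk base Rplp0 at 1055 and Rpl4 at 1049. The lowest were Rpl3l at 0.381, Rpl24 at 0.777, Rps10 at 1.40, Rps13 at 2.43 and Rpl23a at 6.52. The length used is that of all annotated exons together, so the spread and the order depend on it. It was 499 bases for Rplp1, as in its main transcript, but 2691 against 589 for Rps13 and 6270 against 640 for Rps15a. The low values of several universal members cannot be read as low expression: 80.9% of the distinct 75-base words of the main Rpl24 transcript also occur in transcripts of other annotated genes, and the share was 90.1% for Rps10, 78.6% for Rps13 and 81.7% for Rpl23a. A read wholly within such words may not be placed in 1 gene, and how the authors counted such reads is not stated. The study's reads were paired and longer than 75 bases, so these shares are not the part of the reads that was ambiguous. The median level was 28.4 TMM CPM per kilobase over the 41 members with more than 50% of their words shared, 131 over the 29 with 10% to 50%, and 305 over the 13 with less than 10%. Changes over time were close in the 3 classes: from PM to D4 the median log2 change was -0.94, -0.96 and -1.08 in CD1530 and -0.82, -0.85 and -0.99 in AGN, in the same order.

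The comparison of D4 with PM asks how far each member moved over the whole course. In CD1530, 79 of 83 members fell and 1, Rps27l, rose, where 39.9% of all genes were called lower and 43.3% higher (83.2% in all). In AGN, 82 of 83 fell and none rose, where 40.4% of all genes were called lower and 41.6% higher (82.0% in all), and the call for Rps27l there was the closest to the threshold (log2 change -0.13 ± 0.06, adjusted p = 0.044). The members' median log2 change was -0.96 in CD1530, a fold of 0.513, and -0.85 in AGN, a fold of 0.553, while the median of all genes was 0.04 and 0.00. Both comparisons use the same PM libraries, so their likeness is not independent. The large and the small subunit went together, with medians of -0.95 and -0.999 in CD1530 and -0.83 and -0.90 in AGN. In 79 members every CD1530 library at D4 lay below every PM library, against 40.5% of all genes, and in AGN this held for 80 members, against 41.2%. Not called were Rpl24, Rpl39l and Rpl3l in CD1530 and Rpl24 in AGN. Rpl24, the gene of the Belly spot and tail mouse, had a mean of 0.800 TMM CPM and log2 changes of -0.57 ± 0.45 and -0.70 ± 0.47. At so few counts, a fall of the family's size could not be told from no change.

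**Figure D2:**
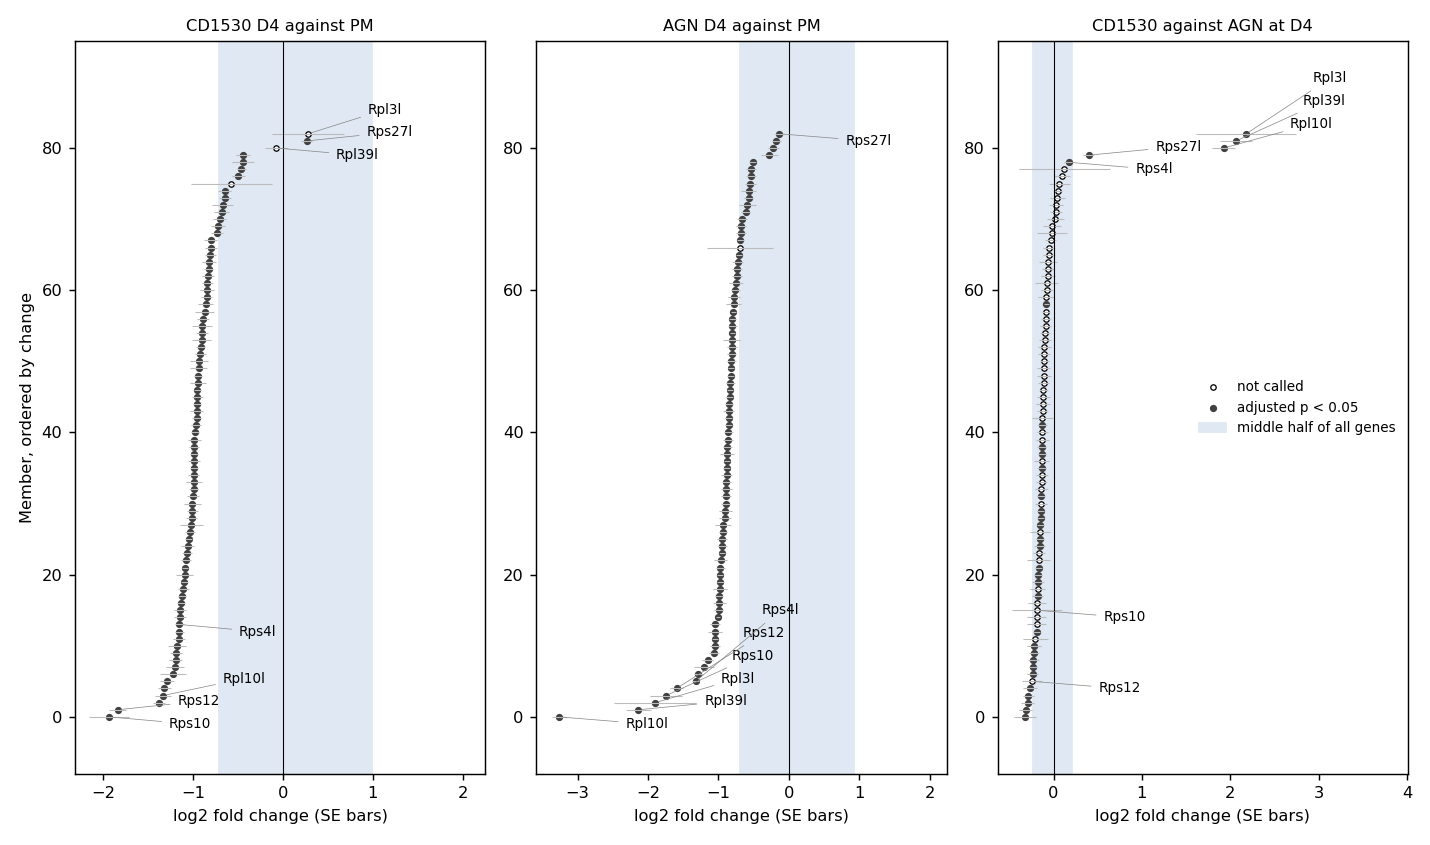
Log2 fold change of the 83 members (horizontal axis, bars are SE), ordered by size along the vertical axis, for D4 against PM in CD1530 and in AGN and for CD1530 against AGN at D4. Filled points are called, open points are not, and the band holds the middle 50% of all genes; most members lie near -0.96, -0.85 and -0.13, and Rpl10l, Rpl39l and Rpl3l lie far to the right between conditions.

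Among the typical members, the stalk shows the pattern. Rplp0, the base of the stalk, stood at 2666, 2781 and 2635 TMM CPM in PM, at 1301, 1327 and 1285 in CD1530 and at 1467, 1424 and 1507 in AGN at D4. The 3 groups did not overlap, with PM highest and CD1530 lowest. Its log2 change from PM was -1.05 ± 0.04 (SE) in CD1530 and -0.88 ± 0.04 in AGN. Rplp2, one of the acidic proteins carried by Rplp0, stood at 600, 698 and 615 in PM, at 249, 272 and 261 in CD1530 and at 282, 286 and 292 in AGN. It fell by 1.29 ± 0.07 and 1.15 ± 0.07 on the log2 scale, and its partner Rplp1 by 1.06 ± 0.07 and 0.94 ± 0.07.

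The steepest falls in CD1530 were in the small subunit. Rps10 had 5.07, 6.05 and 6.41 TMM CPM in PM against 1.36, 2.04 and 1.18 in CD1530 and 1.38, 2.47 and 1.37 in AGN at D4. Its log2 changes were -1.93 ± 0.22 and -1.74 ± 0.22. Rps12 had 40.2, 51.7 and 52.5 in PM against 13.9, 14.4 and 11.97 in CD1530 and 16.0, 16.0 and 15.7 in AGN, with changes of -1.84 ± 0.09 and -1.59 ± 0.09. For both genes all D4 libraries lay far below PM, and 90.1% and 89.5% of their words are shared with other genes, so which copy the reads came from is uncertain. Rps20, where mutations cause the dark skin mouse and anaemia, was counted at higher levels. It had 928, 1077 and 935 in PM, 374, 390 and 371 in CD1530 and 410, 394 and 404 in AGN. It fell by 1.37 ± 0.07 and 1.28 ± 0.07. The weakest falls that passed the test in CD1530 included Rpl41, the smallest ribosomal protein, with -0.44 ± 0.08 in CD1530 and -0.22 ± 0.08 in AGN, Rps27 with -0.44 ± 0.12 and -0.28 ± 0.12, Rpl15 with -0.46 ± 0.05 and -0.51 ± 0.05, and Rpl10, which joins the large subunit late in its assembly, with -0.49 ± 0.07 and -0.18 ± 0.07. Of their words, 36.1%, 98.5%, 74.3% and 91.9% are shared with other genes, in the same order, so the same limit holds.

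Of a fixed set of 12 members known from mouse mutants or Diamond-Blackfan anaemia, 11 fell in each condition, where Rpl24 was not called. The set is not a full list of such genes. Over the whole family 79 and 82 of 83 fell, and over all genes 39.9% and 40.4%. Rps19, the gene most often mutated in that anaemia, changed by -0.65 ± 0.07 in CD1530 and -0.68 ± 0.07 in AGN. Rpl5 and Rpl11, which with 5S ribosomal RNA can bind Mdm2, the inhibitor of p53, changed by -1.19 ± 0.07 and -0.70 ± 0.07 in CD1530 and by -0.89 ± 0.07 and -0.54 ± 0.07 in AGN. Rps6, a target of the S6 kinases, fell by 1.01 ± 0.09 and 0.99 ± 0.09. Rpl38, the gene of the Tail short mouse with its defects of the axial skeleton, fell by 0.89 ± 0.11 and 0.57 ± 0.11.

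The steps between neighbouring times show when the falls came. From PM to D0.25, 73 members fell and none rose in each condition, against 33.3% of all genes called lower in CD1530 (67.8% called in all) and 33.1% in AGN (68.1% in all). The medians were -0.32 and -0.34, and the steepest falls were those of Rpl10l (-1.02 ± 0.08 and -0.95 ± 0.08), Rps12 (-0.86 ± 0.09 and -0.74 ± 0.08) and Rps4l (-0.78 ± 0.05 and -0.76 ± 0.05). From D0.25 to D0.75, 61 members fell and 1 rose in AGN (18.8% of all genes lower, 24.9% higher, 43.7% in all), with a median of -0.21. In CD1530, 30 fell and 3 rose (20.1% lower, 25.8% higher, 45.9% in all), with a median of -0.13. Without CD1530 D0.75 replicate 1, 72 fell and 2 rose, with a median of -0.25. From D0.75 to D1.5, 63 fell and 2 rose in CD1530 (15.5% lower, 18.7% higher, 34.2% in all) with a median of -0.23, and without that library 31 fell and 3 rose with a median of -0.11. A fit of the compared groups only called 9 members for this step and 12 for the one before it. Shares over all genes without that library, or with the compared groups only, are not given here. In AGN, 8 fell and 2 rose (16.0% lower, 14.2% higher, 30.3% in all). Between D1.5 and D2.5, 1 member fell and 6 rose in CD1530 (17.7% and 18.8%, 36.5% in all), and 7 fell and 4 rose in AGN (20.6% and 21.4%, 42.1% in all), with medians of -0.03 in both. These counts depended on the fit: with the compared groups only, 35 were called in CD1530 and 21 in AGN, and with library size only 14 and 28. Library size only called 6332 and 7637 of all 17120 genes for these steps. The last step, D2.5 to D4, brought a second drop, with 69 members lower and 1 higher in CD1530 (29.9% and 27.4%, 57.3% in all), median -0.26, and 52 lower and 0 higher in AGN (29.5% and 29.9%, 59.4% in all), median -0.19. The group mean went down at every step in 49 members in CD1530 and 37 in AGN, against 7.03% and 5.29% of all genes, all libraries included.

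**Figure D3:**
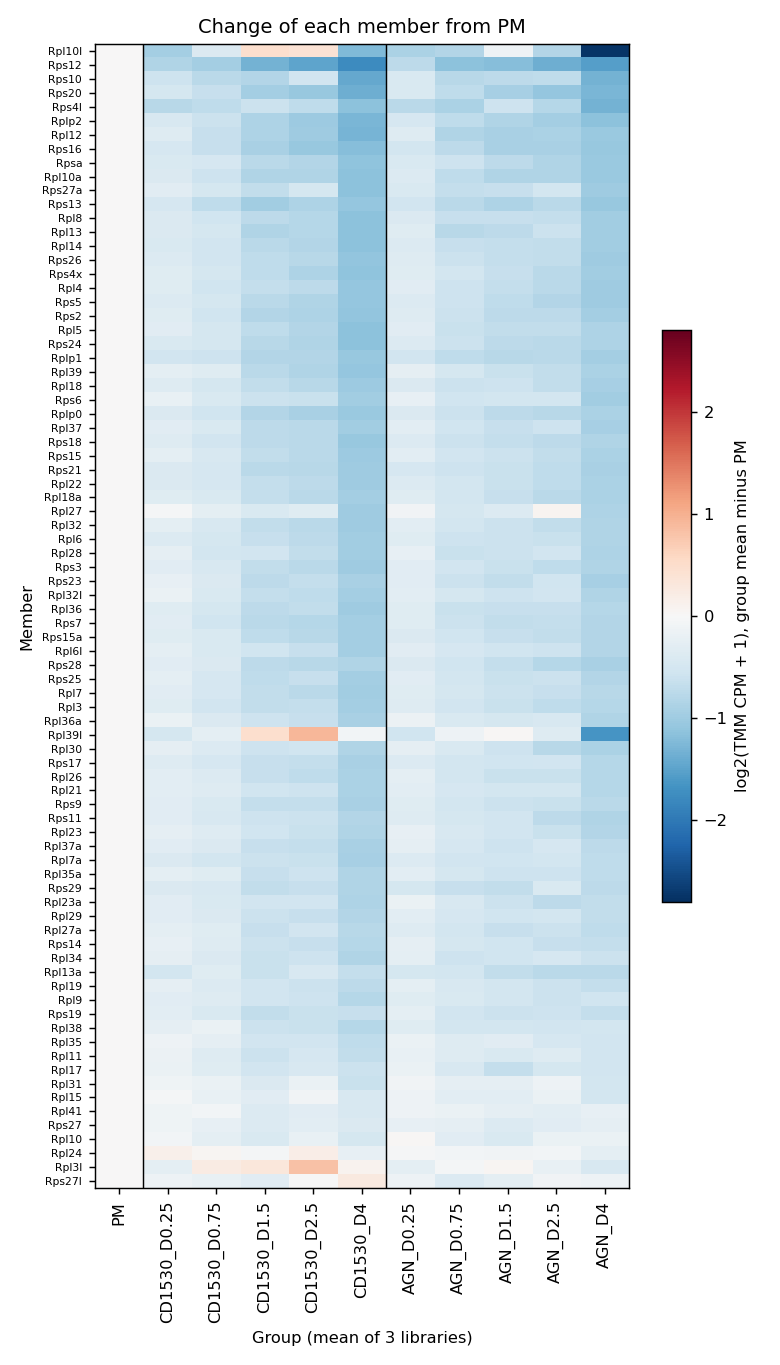
Mean log2 level of 82 of the 83 members in the 11 groups, relative to PM, with groups along the horizontal axis and members in rows. The scale is log2(TMM CPM + 1), blue below PM and red above; most members turn bluer towards D4, while Rpl10l, Rpl39l and Rpl3l are red in CD1530 at D1.5 and D2.5 and Rps27l at D4.

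The comparison of CD1530 with AGN at each time asks whether the retinoid treatment set the members apart. At D0.25 no member was called, against 1.92% of all genes (1.23% higher, 0.695% lower); the median difference was 0.01, 0 members had an unadjusted p under 0.05 and DESeq2 also called 0. At D0.75, 7 members, among them Rpl10l, Rpl27 and Rpl38, were higher in CD1530 and none lower, against 7.94% and 10.0% of all genes (18.0% in all), but without CD1530 D0.75 replicate 1 the count was 2 higher and 1 lower and the median difference went from 0.10 to -0.03. Without CD1530 replicate 2 or 3, 28 and 24 were higher. For counts without a library, shares over all genes are not given here. Rpl38 was among the calls lost without replicate 1 (adjusted p = 0.179). At D1.5, 2 were higher (Rpl10l and Rpl39l) and 2 lower (Rpl35 and Rpl7), against 15.2% and 11.8% (26.9% in all). The lower calls were not firm: Rpl35 lost its call in 8 of 18 alternatives (adjusted p up to 0.174) and Rpl7 in 7 (up to 0.476), most of them with 1 library left out. At D2.5, 5 were higher and 11 lower, against 20.4% and 19.6% (40.0% in all). At D4, 5 were higher and 26 lower, against 22.7% and 24.0% (46.6% in all), with a median difference of -0.13 where that of all genes was -0.02. Of the 83 differences 70 were negative, most of them small. With scaling by library size alone, the counts were 6 higher and 1 lower at D2.5 and 5 higher and 14 lower at D4. Of all 17120 genes, that scaling called 3954 higher and 2775 lower at D2.5 and 4450 and 3495 at D4. The difference between the conditions changed over time in 25 members, against 48.8% of all genes, and in 35 without CD1530 D0.75 replicate 1.

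The 26 members lower in CD1530 at D4 differed by modest amounts. Rpl10 had 30.4, 31.1 and 30.8 TMM CPM in CD1530 and 35.4, 40.0 and 39.4 in AGN, without overlap, a difference of -0.32 ± 0.07 on the log2 scale (adjusted p = 0.00028). Rpl38 had 5.71, 7.21 and 7.70 in CD1530 and 8.63, 8.01 and 9.09 in AGN, also without overlap, a difference of -0.32 ± 0.12 (adjusted p = 0.026). The call for Rpl38 was lost in 5 of 18 alternatives, with adjusted p up to 0.217 when 1 library was left out. Rpl5 had 17.9, 20.1 and 18.1 against 23.8, 23.2 and 21.8, a difference of -0.29 ± 0.08 (adjusted p = 0.0016). For these genes, 91.9% of the words of Rpl10, 51.3% of Rpl38 and 92.5% of Rpl5 are shared with other genes, so which copy the reads came from is uncertain. Rps24 had 255, 276 and 267 against 320, 317 and 334, and Rpl12, of the base on which the stalk sits, had 31.7, 27.9 and 27.8 against 33.5, 33.6 and 38.1. Neither pair of groups overlapped, and the differences were -0.28 ± 0.06 (adjusted p = 0.00062) and -0.27 ± 0.08 (adjusted p = 0.0052). Of the fixed set of 12 mutant genes, which does not hold Rps24, Rpl38, Rpl5 and Rps7 were called lower. Over the whole family it was 26 of 83, and over all genes 4102 of 17120. Of the stalk only Rplp0 was called (-0.17 ± 0.04), with Rplp1 at -0.12 ± 0.07 and Rplp2 at -0.14 ± 0.08.

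Rpl27 differed at D2.5 and not at D4. In AGN it had 49.9, 47.9 and 52.9 TMM CPM at D1.5, 74.4, 67.2 and 64.3 at D2.5 and 33.4, 35.6 and 38.1 at D4, while in CD1530 it had 50.4, 51.9 and 52.3 at D2.5. The AGN level thus rose at D2.5, to or above that of PM (64.4, 68.0 and 63.7), and was lower again at D4. The difference between conditions at D2.5 was -0.42 ± 0.06 (adjusted p = 2.2e-07). At D0.75, where 1 CD1530 library stood apart, it was 0.24 ± 0.06 (adjusted p = 0.0035). Rpl13a was higher in CD1530 at D2.5, with 49.6, 44.9 and 45.0 in CD1530 against 32.0, 40.8 and 39.4 in AGN, a difference of 0.33 ± 0.08 (adjusted p = 0.0021). For Rpl27 and Rpl13a, 62.4% and 56.3% of the words are shared with other genes, so which copy the reads came from is uncertain.

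The 5 members higher in CD1530 at D4 were Rpl10l, Rpl39l, Rpl3l, Rps27l and Rps4l, each a paralogue of a universal member. Rpl10l lies on chromosome 12 at 66283379 to 66284401 on the minus strand (GRCm38) and shares 0.316% of its words with other genes. It had 18.9, 20.4 and 18.2 TMM CPM in PM and at D0.25 10.3, 8.89 and 9.29 in CD1530 against 9.52, 9.03 and 11.3 in AGN. At D2.5 it had 26.5, 25.4 and 24.7 in CD1530 against 10.2, 10.3 and 10.6 in AGN, and at D4 7.98, 8.04 and 6.80 against 1.94, 1.99 and 2.08. The conditions overlapped at D0.25 and at no later time. The difference was 0.44 ± 0.08 at D0.75 (adjusted p = 5.7e-05), 0.65 ± 0.07 at D1.5 (9.1e-10), 1.30 ± 0.08 at D2.5 (5.5e-18) and 1.92 ± 0.13 at D4 (5e-16). At D0.75 it lay between 0.36 and 0.48 under every alternative run, leaving out each library included, with adjusted p up to 0.0121. Relative to PM, Rpl10l at D4 was lower in both, by -1.33 ± 0.08 in CD1530 and -3.26 ± 0.11 in AGN.

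Rpl39l, on chromosome 16 at 10170226 to 10174911 on the plus strand, followed a like course at a lower level. It had 6.32, 7.89 and 8.08 TMM CPM in PM, 16.0, 13.9 and 15.2 in CD1530 against 5.09, 6.27 and 5.30 in AGN at D2.5, and 6.87, 7.48 and 6.80 against 1.56, 1.81 and 1.66 at D4. CD1530 at D2.5 lay above every other group, and at D4 it was within the range of PM. The difference was -0.15 ± 0.13 at D0.75 (adjusted p = 0.51), 0.47 ± 0.12 at D1.5 (0.0023), 1.45 ± 0.12 at D2.5 (2.3e-13) and 2.07 ± 0.18 at D4 (5.5e-13). Its partner Rpl39 fell in both conditions, by 1.09 ± 0.10 and 0.90 ± 0.10 from PM to D4.

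Rpl3l, on chromosome 17 at 24727820 to 24736143 on the plus strand, was near the limit of detection, with a mean of 12.5 counts per library. At D2.5 it had 28 to 33 counts per CD1530 library and 4 to 12 per AGN library, a ratio of levels of 5.03 (95% interval 3.23 to 8.10, counting error only). At D4 the counts were 11 to 15 and 2 to 3, a ratio of 4.69 (2.06 to 12.5). The libraries of the conditions did not overlap at either time, and the fitted differences were 2.31 ± 0.36 (adjusted p = 9.9e-07) and 2.18 ± 0.57 (0.0015). Its universal partner Rpl3 differed by -0.15 ± 0.04 at D4.

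Rps27l, on chromosome 9 at 66946086 to 66949516 on the plus strand, is a known target of p53. It had 147, 164 and 156 TMM CPM in PM, 181, 192 and 189 in CD1530 at D4 and 137, 139 and 149 in AGN at D4. CD1530 at D4 lay above all PM and AGN libraries. The difference between conditions was 0.40 ± 0.06 (adjusted p = 1.7e-06) and that from PM 0.26 ± 0.06 (0.00018), while its partner Rps27 fell by 0.44 ± 0.12 from PM. Of the words of Rps27, 98.5% are shared with other genes, so which copy its reads came from is uncertain. Rps4l, annotated as a pseudogene, on chromosome 6 at 148354656 to 148355598 on the plus strand, had 550, 600 and 564 in PM, 253, 268 and 251 in CD1530 and 228, 226 and 232 in AGN at D4, a difference of 0.17 ± 0.05 (0.0054).

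**Figure D4:**
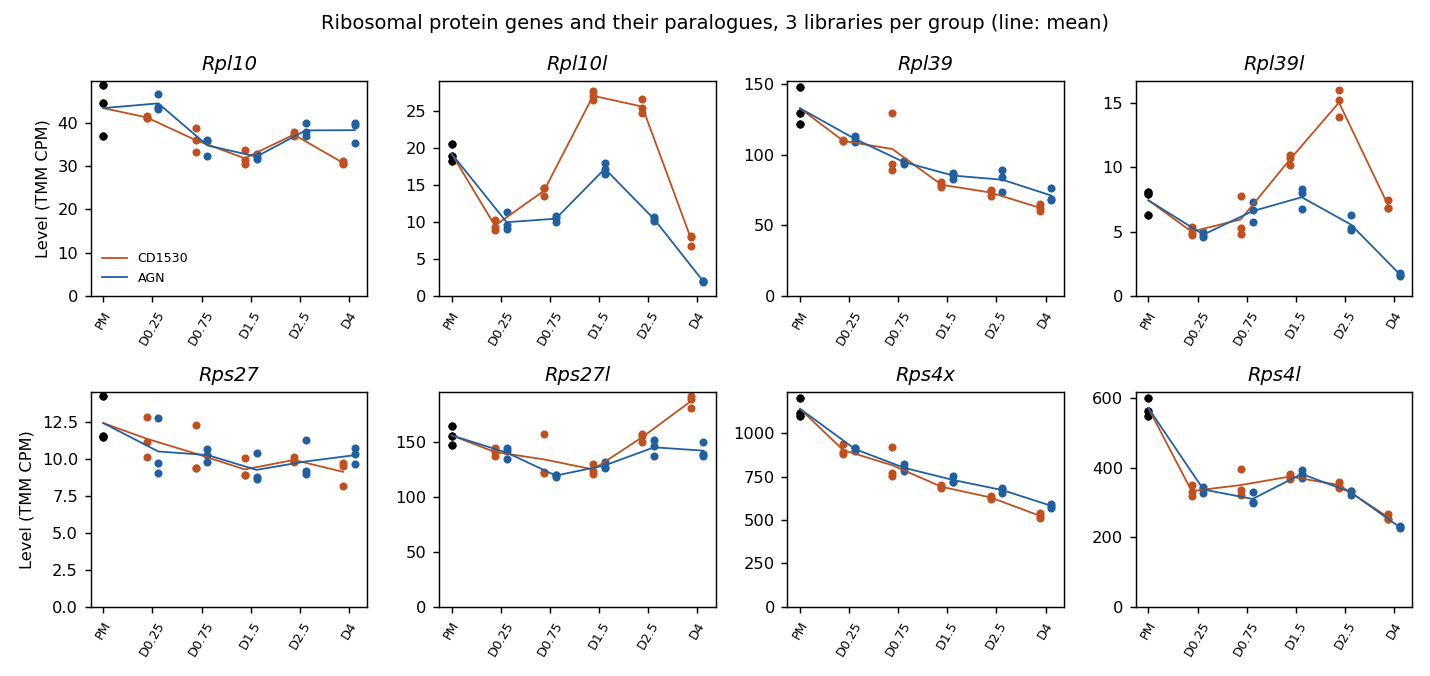
Level (TMM CPM, vertical axis, each with its own range) of Rpl10, Rpl39, Rps27 and Rps4x and of their paralogues in every library by group; points are libraries, black for PM, and lines join group means. Rpl10l and Rpl39l separate between CD1530 and AGN by D2.5 and Rps27l at D4, where Rpl39, Rps27 and Rps4x lie below PM in both conditions.

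When libraries were scaled on the members themselves, which asks who moved relative to the rest of the family, 9 members were higher and 6 lower in CD1530 than in AGN at D4, against 41.8% of all genes called. The largest were Rpl3l (2.31), Rpl39l (2.18), Rpl10l (2.04) and Rps27l (0.52) on the higher side and Rpl10 (-0.20), Rpl5 (-0.18) and Rps24 (-0.17) on the lower, all as log2 differences. From PM to D4, Rps10 (-0.97) and Rps12 (-0.87) in CD1530 and Rpl10l (-2.41) and Rpl39l (-1.29) in AGN went furthest below the family. Across the 11 group means, the members with the lowest Pearson correlation with the mean of the family were Rps27l (-0.18), Rpl3l (-0.08), Rpl39l (0.13) and Rpl10l (0.41). Outside the family the group means most like that mean were those of pseudogenes such as Rps26-ps1 (0.995), of Eef1b2 (0.995), an elongation factor subunit, and of Rack1 (0.993), a protein of the small subunit outside the symbol rule. These values describe 11 groups with all libraries included, and near copies share reads.

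Related lists are given for context and were chosen with earlier results of these data known. Over all genes, 39.9% were called lower and 43.3% higher from PM to D4 in CD1530, 40.4% and 41.6% in AGN, and 24.0% lower and 22.7% higher in CD1530 than in AGN at D4, and each count below is to be read against these shares. All 26 ribosome biogenesis genes fell from PM to D4 in both conditions, with medians of -1.43 and -1.39, while between conditions at D4 6 were higher in CD1530 and 9 lower. Of 14 other TOP mRNAs, 13 fell and 1 rose from PM in each condition (medians -0.72 and -0.61), and 9 were lower and 1 higher in CD1530 at D4. All 6 measured noncoding snoRNA hosts fell in both (medians -1.49 and -0.99), and 4 were lower in CD1530 at D4, among them Gas5 (-0.42) and Snhg1 (-0.60). Of 75 mitochondrial ribosomal protein genes, 59 fell and 3 rose in CD1530 and 55 fell and 2 rose in AGN, with medians of -0.45 and -0.48. Of 150 ribosomal protein pseudogenes, which share reads with members, 139 fell and 2 rose in CD1530 and 137 fell and 2 rose in AGN, with medians of -0.93 and -0.81. Of 13 regulators, 8 fell and 4 rose in CD1530 and 10 fell and 2 rose in AGN. Mycn had a mean of 290 TMM CPM in PM against 37.0 and 41.0 at D4, and Myc from 12.4 to 48.5 and 36.7. All 12 p53 targets, Rps27l among them, were higher in CD1530 than in AGN at D4, where 22.7% of all genes were, with a median of 0.73 and Eda2r (1.30), Mdm2 (0.96) and Ccng1 (0.94) as examples. From PM to D4, 10 of them rose and 1 fell in CD1530, and 6 rose and 6 fell in AGN.

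**Figure D5:**
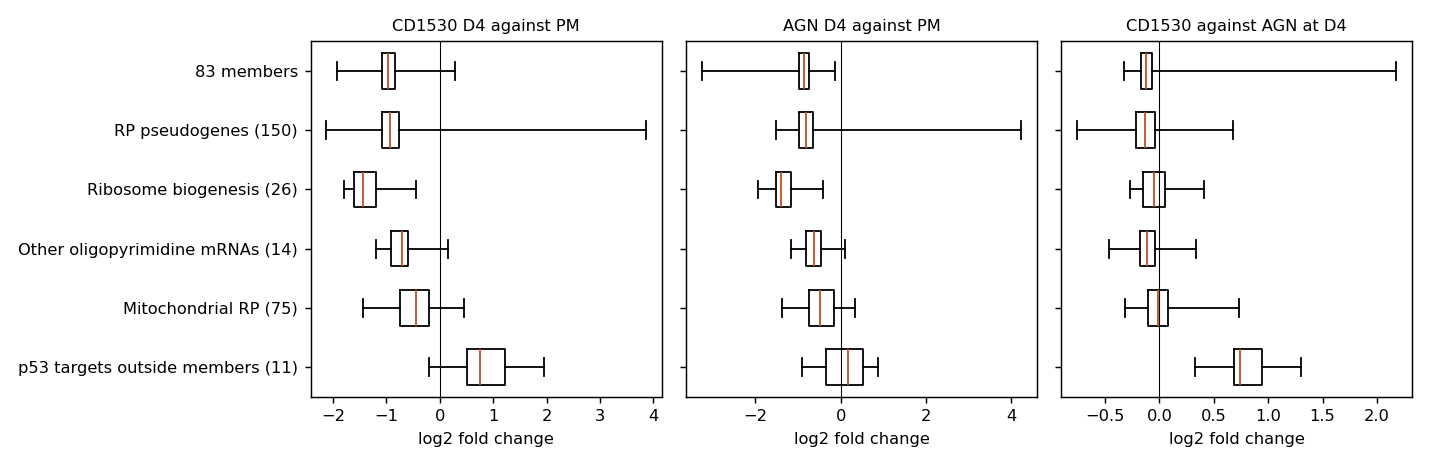
Log2 fold change (horizontal axis, ranges differ) of the members and 5 related lists for D4 against PM in CD1530 and AGN and for CD1530 against AGN at D4; boxes hold the middle 50% with the median as a line, and whiskers reach the lowest and highest gene. The medians of the ribosome biogenesis genes are lowest from PM to D4, at -1.43 and -1.39 against -0.96 and -0.85 for the members, and the 11 p53 targets outside the family are highest between conditions.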

How the data were processed

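RNA from 33 cultures was sequenced. Per the study's methods, the authors aligned paired reads to GRCm38 with STAR, counted them per gene with featureCounts and deposited 1 table of raw counts. Strand setting, annotation and the treatment of reads with several matches are not given in the sources used here, and the last can shift counts between members and their near copies. All 17120 genes passed edgeR's filter on low counts. Differences were tested with edgeR 4.0.16 in R 4.3.3 (quasi-likelihood F test, robust, TMM scaling) in 1 fit of the 11 group means, with Benjamini-Hochberg adjustment over all genes and a threshold of 0.05, for 18 contrasts. Errors on log2 differences are standard errors, and those on shares are SD. The study states that replicates are biological. No 2 libraries were identical. Members and gene lists were chosen with earlier results of these data known.

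Named members were the fixed sets (stalk, paralogue pairs, mutant genes), up to 5 called each way per contrast by size with a mean of at least 50 counts, the 5 highest and 5 lowest per kilobase, those under 20 TMM CPM, and those that moved most relative to the family. Alternatives were DESeq2 1.42.0, limma 3.58.1, other scalings and filters, a GC and length correction, a replicate block, fits of the compared groups only and leaving out each library. Shared words are 75-base words of the main GENCODE transcript, shorter than the study's paired reads. The scripts were tested on simulated data. Over 51 pairs of groups, correlations between the deviations of same-numbered replicates ran from -0.15 to 0.23, and 5 were over 0.1. Those of the other pairs ran from -0.19 to 0.15. Whether same-numbered replicates belong together is not known, and the main fit did not pair them. For 1 member, values of its own are not reported here.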

Additional observations from a re-analysis of the deposited data

Results flagged for a closer look

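In 25 of 83 members the difference between CD1530 and AGN changed over time, by edgeR's test of the interaction, a smaller share than the 48.8% of all genes called. Adjusted p was 2.05e-14 for Rpl10l, 6.17e-12 for Rpl39l, 3.75e-07 for Rpl27 and 0.000581 for Rps27l. It was 0.00555 for Rpl12, 0.00564 for Rpl38, 0.00574 for Rpl7, 0.00680 for Rplp0, 0.00730 for Rpl5, 0.00991 for Rps24, 0.0204 for Rpl10 and 0.0227 for Rps4l. With libraries scaled on the members, the call was lost for Rpl12 (0.113), Rpl38 (0.0506), Rpl7 (0.740), Rplp0 (0.845), Rpl5 (0.210) and Rpl10 (0.284), and kept for Rpl10l, Rpl39l, Rpl27, Rps27l, Rps4l and Rps24 (0.0461). The 5 times include D0.75, where 1 CD1530 library stood apart. Without it 35 members were called (share over all genes not given here), and the single p values above include it.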

How the results depend on the processing

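Directions of the named members held: of 684 values under alternatives for 38 results, 610 kept their call, 74 lost it and 0 turned. Counts of called members moved more. Scaled on the members, CD1530 against AGN gave 2 at D0.75, 2 at D1.5 and 15 at D4. From PM it gave 23 (D0.25) and 45 (D4) in CD1530 and 21 and 42 in AGN, between later times 9, 9 and 18 in CD1530 and 9, 6 and 27 in AGN, and for the interaction 10. Of all genes, this scaling called 13.0%, 19.7% and 41.8% between conditions at those times. From PM it called 65.0% and 85.3% in CD1530 and 64.7% and 82.4% in AGN, and for the interaction 38.3%. Between later times it called 41.8%, 50.2% and 56.9% in CD1530 and 47.4%, 24.0% and 56.3% in AGN. Fits of the compared groups only gave 1, 22, 37 and 54 between conditions from D0.75 to D4, 12, 9 and 35 for the first 3 later steps in CD1530, and 25 and 21 for D0.75 to D1.5 and D1.5 to D2.5 in AGN. A minimum change of 0.3 gave 2, 2, 5 and 6 between conditions, 2, 11, 3 and 28 for the later steps in CD1530 and 10, 2, 3 and 18 in AGN. Library size only gave 7 at D2.5 and 19 at D4 between conditions, 14 from D1.5 to D2.5 in CD1530 and 28 in AGN. Of all 17120 genes it called 6729, 7945, 6332 and 7637, in the same order. The GC and length correction gave 26 between conditions at D2.5, 52 and 19 for D0.25 to D0.75 and D1.5 to D2.5 in CD1530, 20 and 18 for D0.75 to D1.5 and D1.5 to D2.5 in AGN, and 38 for the interaction. Of all genes it called 7431, 8309, 6749, 5834, 7741 and 9179, in the same order. With DESeq2 size factors the count at D1.5 between conditions was 7 (4637 of all genes), and without genes under 20 TMM CPM 2. Shares over all genes are not given here for the other alternatives or for leaving out a library. Those counts show only how the calls moved. The cause was not tested.

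The replicate block left every count within 1.5 times, with 31 at D4 between conditions, 80 and 81 from PM to D4, and 23 for the interaction. Whether the replicate numbers pair the samples is not known. The block with the GC and length correction gave 27 at D2.5 between conditions, 54 and 18 in CD1530 and 21 and 19 in AGN for the same steps.

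Leaving out 1 library gave 3 to 28 called members at D0.75, 2 to 3 at D1.5, 7 to 17 at D2.5 and 21 to 31 at D4 between conditions. In CD1530 the ranges were 67 to 74, 15 to 74, 34 to 74, 5 to 8 and 62 to 66 for the 5 steps, in AGN 67 to 74, 49 to 57, 4 to 10, 5 to 13 and 38 to 54, and for the interaction 19 to 46. From PM to D4 they were 80 to 80 and 79 to 82. Libraries that moved a count by over 1.5 times were, between conditions, all 6 at D0.75 (3, 28 and 24 without CD1530 replicates 1, 2 and 3, and 4, 3 and 4 without those of AGN), CD1530 replicates 1 and 2 and AGN replicate 3 at D1.5 (2 each), and at D2.5 the CD1530 replicates (10, 8 and 9) and AGN replicates 1 and 2 (7 and 9). For the step to D0.75 in CD1530 they were D0.25 replicate 1 (17) and the D0.75 replicates (74, 16 and 15), and for the next step D0.75 replicate 1 (34). In AGN they were D0.75 replicate 3 (6) and D1.5 replicate 2 (4) for the step to D1.5, and D1.5 replicates 1 and 3 (7 and 6) and D2.5 replicate 1 (5) for the step to D2.5. For the interaction they were CD1530 D0.75 replicates 2 and 3 (46 and 41). The D4 share relative to PM was 0.462 in CD1530 (0.454 to 0.474 without 1 library, 0.472 without the top 50 other genes, 0.533 from mean log2 levels) and 0.490 in AGN (0.482 to 0.502, and 0.557 from mean log2 levels). Low counts limit Rpl3l and Rpl24.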
